A study of Mus musculus with 3 samples.

Results

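The 9 genes described here encode proteins that tie the thick filaments of striated muscle together or run along the sarcomere, and were found as the rows of the deposited array table whose annotated symbol was one of their names. All 9 were present, each as 1 of the 25206 features, which made 4 M-band genes (Myom1, Myom2, Myom3, Obsl1), 2 giant filament genes (Ttn, Neb) and 3 myosin-binding genes (Mybpc1, Mybpc2, Mybph). The study asked whether knockdown of FoxP1, a forkhead transcription factor, alters the wasting of muscle in mice that carry the colon 26 (C26) adenocarcinoma. RNA came from the tibialis anterior, a fast muscle of the lower hind limb, of male CD2F1 mice (strain written CD2 in the labels), which had received an AAV9 vector by direct injection at 10 weeks of age, 2 weeks before inoculation, and whose muscles were taken 26 days after it. In the C26 AAV9-FoxP1-shRNA group (C26 FoxP1-shRNA muscle) the vector carried an shRNA against FoxP1 with mCherry, and 500000 tumour cells were given per flank. In the C26 AAV9-scrambled-shRNA group (C26 scrambled muscle) the vector carried a scrambled shRNA with GFP, and the same tumour cells were given. In the Sham AAV9-scrambled-shRNA group the scrambled vector was the same and PBS was given without cells. All muscles thus held 1e+11 vector genomes in 20 µL, the shRNA was driven by a U6 promoter that is not restricted to muscle fibres, and a Sham muscle with FoxP1-shRNA was not analysed here. Both groups compared for the shRNA also differed in the fluorescent protein of the vector, and the effects of the shRNA and of the marker cannot be told apart.

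Each group was 1 Mouse Gene 2.0 ST array that held RNA pooled from 3 mice, so that the values below carry neither errors nor tests, and a difference between arrays could not be set against the spread between mice. Values are log2 expression values from the Robust Multiarray Average (RMA), and a difference of 1 between log2 values is a 2-fold difference. The probes of each gene bind with their own strength, and levels are therefore compared between arrays for 1 gene and not between genes. Foxp1, the target of the shRNA, had a log2 value of 6.52 in C26 FoxP1-shRNA muscle, 7.31 in C26 scrambled muscle and 6.41 in Sham. The 8 markers of skeletal muscle fibres had log2 values between 10.10 and 12.16 in C26 FoxP1-shRNA muscle, between 7.16 and 12.08 in C26 scrambled muscle and between 11.35 and 12.39 in Sham. The lowest of them in both tumour groups was Casq1, the calcium-binding protein of the sarcoplasmic reticulum. Casq1 had a log2 difference of -4.33 in C26 scrambled muscle against Sham and of 2.95 in C26 FoxP1-shRNA muscle against C26 scrambled muscle. It is 1 of the 7 markers whose mean is used below to centre the arrays, and it weighs heavily in that mean. The sampled tissue was whole muscle with all its cell types, in which fewer cells of a type and less RNA per cell cannot be told apart.

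In the sarcomere, the repeating contractile unit of striated muscle, myosin thick filaments are held in register at their centre by the M-band, a lattice of myomesin proteins to which titin and members of the obscurin family attach. Titin, encoded by Ttn, reaches from the Z-disc at the edge of the sarcomere to the M-band and acts as a molecular spring, whereas nebulin, encoded by Neb, lies along the thin actin filament. Myosin-binding proteins C and H sit in stripes on the thick filament on either side of the M-band, and the C proteins adjust how myosin heads meet actin. Myom1 is expressed in all striated muscle, Myom2 mainly in fast fibres and heart, and Myom3 mainly in slow and intermediate fibres. Mybpc1 encodes the slow and Mybpc2 the fast skeletal form of myosin-binding protein C.

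The promoters of 7 of the 9 genes were in the RefSeq promoter table of build GRCm38.p6, as windows of 250 bases before and 50 bases after a transcription start. The 250 bases before the start are shown for Myom3 and Mybph, which differed most between arrays, for the giant filament gene in the table (Ttn), and for the fast myosin-binding protein C gene (Mybpc2). They were read 5′ to 3′ on the strand of the gene, with capitals at every motif match. Myom3 lay at chr4:135759465-135759714, plus strand. Mybph lay at chr1:134193198-134193447, plus strand. Ttn lay at chr2:76982548-76982797, minus strand. Mybpc2 lay at chr7:44524670-44524919, minus strand. The gene models of the 7 genes in the same annotation begin upstream of these starts, by the most for Myom1 and Myom3, so that a window stands at 1 of several starts and can hold transcribed bases.
Myom3: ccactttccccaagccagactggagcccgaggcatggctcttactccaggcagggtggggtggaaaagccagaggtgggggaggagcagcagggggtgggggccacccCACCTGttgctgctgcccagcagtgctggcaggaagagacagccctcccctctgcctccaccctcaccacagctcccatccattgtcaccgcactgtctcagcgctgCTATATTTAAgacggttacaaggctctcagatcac
Mybph: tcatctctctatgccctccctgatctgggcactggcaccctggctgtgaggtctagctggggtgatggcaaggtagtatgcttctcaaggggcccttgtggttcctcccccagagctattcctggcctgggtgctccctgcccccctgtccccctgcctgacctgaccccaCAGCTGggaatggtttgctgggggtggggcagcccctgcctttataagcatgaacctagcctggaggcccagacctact
Ttn: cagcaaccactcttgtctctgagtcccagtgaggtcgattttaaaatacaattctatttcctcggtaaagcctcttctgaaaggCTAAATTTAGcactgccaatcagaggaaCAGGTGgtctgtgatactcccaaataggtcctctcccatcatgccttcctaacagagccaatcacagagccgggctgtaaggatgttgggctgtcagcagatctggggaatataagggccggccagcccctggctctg
Mybpc2: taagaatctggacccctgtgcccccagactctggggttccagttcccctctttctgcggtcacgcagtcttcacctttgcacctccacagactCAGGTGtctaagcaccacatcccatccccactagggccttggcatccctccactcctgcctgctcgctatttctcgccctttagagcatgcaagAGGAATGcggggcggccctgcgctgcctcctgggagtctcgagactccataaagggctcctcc

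The search covered both strands of the whole window for 5 motifs, and no match in these genes overlapped a match of another motif. The MEF2 consensus, the binding motif of the myocyte enhancer factor 2 family, had a match in Myom3 from 35 to 26 bases before the start and in Ttn from 166 to 157 bases before it, and in 3.19% of all 32851 promoters of this length. The E-box CANNTG, which myogenic factors such as MyoD and myogenin bind, was present in 7 of the 7 windows and in 72.3% of all promoters. In Mybph its only match lay from 79 to 74 bases before the start. The MCAT element CATTCCT, bound by TEAD factors, had a match in Mybpc2 alone among the 7, from 63 to 57 bases before the start and on the opposite strand, and in 5.36% of all promoters. The CArG box, bound by serum response factor, had a match in Myom1 from 99 to 90 bases before the start and in 1.63% of all promoters. The forkhead core TGTTTAC was in 0 of the 7 windows and in 3.65% of all promoters. A match is a description of the letters and not of binding, which was not measured here.

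On the deposited scale Mybph, which encodes myosin-binding protein H, was the 1 gene of the 9 that differed by 2-fold in any comparison, in C26 scrambled muscle against Sham, and it was under that size when the arrays were centred on the fibre markers. In C26 scrambled muscle against Sham, 1 of the 9 genes was at least 2-fold lower (4.33% of all features) and 0 were at least 2-fold higher (3.34% of all features). Apart from Mybph, the differences were smaller, and 5 of the 9 differed by less than 1.2-fold, as did 50.7% of all features. The median log2 difference of the 9 was -0.23, beside 0.03 over all features, and after centring on the mean of the fibre markers it was 0.61 beside 0.88. In C26 FoxP1-shRNA muscle against C26 scrambled muscle, 0 of the 9 were at least 2-fold higher (1.44% of all features) and 0 at least 2-fold lower (1.06% of all features), and the median was 0.23 beside -0.03 over all features, or -0.30 beside -0.56 after the same centring. Both comparisons use the same C26 scrambled array, so that a value that is by chance low on it is lower in the first and higher in the second. C26 FoxP1-shRNA muscle and Sham, which do not share it, are therefore also set against each other, with 0 of the 9 at least 2-fold lower (2.17% of all features), 0 at least 2-fold higher (1.61% of all features) and a median of -0.09 beside -0.0041 over all features.

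**Figure D1:**
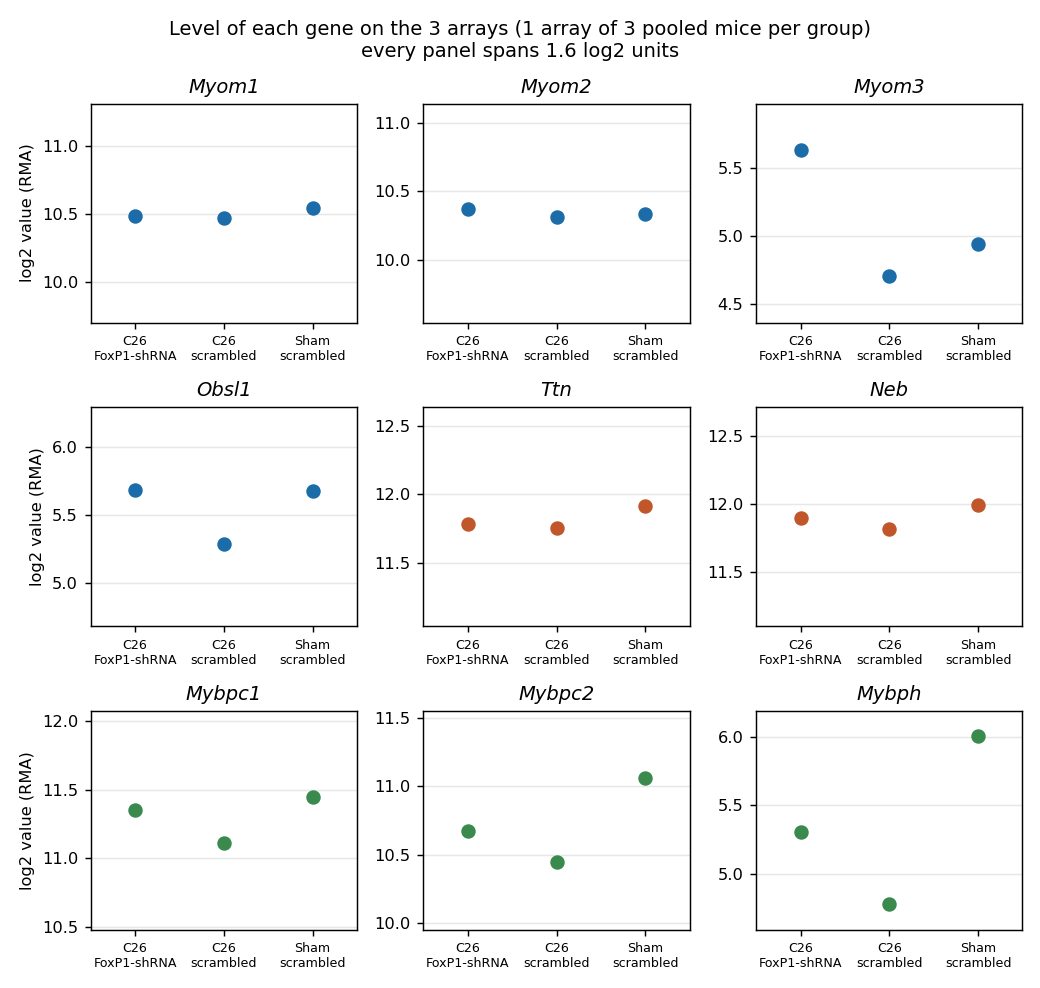
Log2 expression value (RMA) of each of the 9 genes on the 3 arrays, 1 array of 3 pooled mice per group, with C26 FoxP1-shRNA muscle at the left and Sham at the right of each panel; every panel spans the same number of log2 units. Myom1, Myom2, Ttn and Neb are nearly level across the arrays, Myom3 is highest in C26 FoxP1-shRNA muscle at 5.63, and Mybph is highest in Sham at 6.003 and lowest in C26 scrambled muscle at 4.78.

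Among the M-band genes, the myomesins Myom1 and Myom2 were almost level on the 3 arrays on the deposited scale, and Myom3 was highest in the muscle with FoxP1-shRNA. Myom1, which encodes the myomesin found in all striated muscle, had a log2 value of 10.48 in C26 FoxP1-shRNA muscle, 10.47 in C26 scrambled muscle and 10.55 in Sham. Its 3 values lay within 0.08 of each other, which is a fold of 1.05 between C26 scrambled muscle and Sham. Myom2, which encodes M-protein, had a log2 value of 10.37 in C26 FoxP1-shRNA muscle, 10.31 in C26 scrambled muscle and 10.34 in Sham. The order of its 3 values differed from that of Myom1, with Sham in the middle. With the arrays centred on the mean of the fibre markers, the difference in C26 scrambled muscle against Sham was 0.77 for Myom1 and 0.82 for Myom2, and in C26 FoxP1-shRNA muscle against C26 scrambled muscle it was -0.52 for Myom1 and -0.47 for Myom2. The difference between Myom1 and Myom2 on the same array, which no constant of scaling can shift, changed by -0.05 in C26 scrambled muscle against Sham and by -0.05 in C26 FoxP1-shRNA muscle against C26 scrambled muscle.

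Myom3, the myomesin of slow and intermediate fibres, had a log2 value of 5.63 in C26 FoxP1-shRNA muscle, 4.71 in C26 scrambled muscle and 4.94 in Sham. It was thus highest in the muscle with FoxP1-shRNA, and both muscles with scrambled shRNA were lower. It was 1.89-fold higher in C26 FoxP1-shRNA muscle than in C26 scrambled muscle, a log2 difference of 0.92 that 1.79% of all features passed. It was 1.61-fold higher in C26 FoxP1-shRNA muscle than in Sham, a difference that 4.07% of all features passed. In C26 scrambled muscle it was 1.18-fold lower than in Sham on the deposited scale, with a log2 difference of -0.23 that turned to 0.61 when the arrays were centred on the mean of the fibre markers. Of the 9 genes, Myom3 alone was at least 1.5-fold higher in this comparison of the shRNAs (5.43% of all features), and 0 were at least 1.5-fold lower (4.96% of all features). Set against Myom2 on the same array, Myom3 was higher by 0.86 on the log2 scale in C26 FoxP1-shRNA muscle than in C26 scrambled muscle, and by 0.65 in C26 FoxP1-shRNA muscle than in Sham.

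Obsl1 encodes obscurin-like 1, a cytoskeletal adaptor that binds titin and myomesin at the M-band. Its log2 value was 5.69 in C26 FoxP1-shRNA muscle, 5.29 in C26 scrambled muscle and 5.68 in Sham. On this scale the muscle of tumour-bearing mice with scrambled shRNA was the low one, and the other two arrays differed by 0.01. The fold was 1.32 between C26 FoxP1-shRNA muscle and C26 scrambled muscle, and 10.8% of all features were higher by more. The fold was 1.31 between C26 scrambled muscle and Sham, with Obsl1 lower in C26 scrambled muscle, and 16.7% of all features were lower by more. Centring on the mean of the fibre markers turned both signs, to -0.13 in C26 FoxP1-shRNA muscle against C26 scrambled muscle and to 0.46 in C26 scrambled muscle against Sham.

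The giant filament genes differed little on the deposited scale. Ttn, which encodes titin, had a log2 value of 11.78 in C26 FoxP1-shRNA muscle, 11.76 in C26 scrambled muscle and 11.92 in Sham. Neb, which encodes nebulin, had a log2 value of 11.90 in C26 FoxP1-shRNA muscle, 11.82 in C26 scrambled muscle and 11.99 in Sham. Both had their highest value in Sham and their lowest in C26 scrambled muscle. In C26 scrambled muscle against Sham the fold was 1.12 for Ttn, and 30.1% of all features were lower by more. In the same comparison the fold was 1.13 for Neb, and 29% of all features were lower by more. With the arrays centred on the mean of the fibre markers the log2 difference was 0.68 for Ttn and 0.67 for Neb in this comparison, and -0.50 for Ttn and -0.45 for Neb in C26 FoxP1-shRNA muscle against C26 scrambled muscle. Whatever the centring, Ttn and Neb stayed close, since the difference between them on the same array changed by 0.01 in C26 scrambled muscle against Sham and by -0.05 in C26 FoxP1-shRNA muscle against C26 scrambled muscle. Each is spliced into many forms, and the array gives 1 value per gene over all its probes, so that a change of isoform was not measured.

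The myosin-binding genes were lower in C26 scrambled muscle than in Sham on the deposited scale, and Mybpc1 and Mybpc2 were higher when the mean of the fibre markers was used. Mybpc1, the slow skeletal form, had a log2 value of 11.35 in C26 FoxP1-shRNA muscle, 11.11 in C26 scrambled muscle and 11.44 in Sham. Mybpc2, the fast skeletal form, had a log2 value of 10.67 in C26 FoxP1-shRNA muscle, 10.44 in C26 scrambled muscle and 11.06 in Sham. Both were lowest in C26 scrambled muscle and highest in Sham, and Mybpc2 stood further from its Sham value. The fold between C26 scrambled muscle and Sham was 1.26 for Mybpc1, with 19.1% of all features lower by more. The fold in the same comparison was 1.53 for Mybpc2, with 9.91% of all features lower by more, but its log2 difference of -0.61 became -0.26 with the median of the fibre markers as centre and 0.23 with their mean. Measured against Mybpc1 on the same array, Mybpc2 was lower by a log2 difference of -0.28 in C26 scrambled muscle than in Sham. That difference between the forms changed by -0.02 in C26 FoxP1-shRNA muscle against C26 scrambled muscle, and by -0.29 in C26 FoxP1-shRNA muscle against Sham. The gap between the fast and the slow form was therefore about the same in both tumour groups.

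Mybph encodes myosin-binding protein H, a short relative of myosin-binding protein C in the thick filament. Its log2 value was 5.30 in C26 FoxP1-shRNA muscle, 4.78 in C26 scrambled muscle and 6.003 in Sham. Sham was the highest of the arrays and C26 scrambled muscle the lowest, with C26 FoxP1-shRNA muscle between them. Mybph was 2.34-fold lower in C26 scrambled muscle than in Sham, and 2.82% of all features were lower by more. It was 1.44-fold higher in C26 FoxP1-shRNA muscle than in C26 scrambled muscle, and 6.81% of all features were higher by more. With the arrays centred on the mean of the fibre markers, the log2 difference of Mybph in that comparison was -0.0035. Mybph was 1.62-fold lower in C26 FoxP1-shRNA muscle than in Sham, and 4.5% of all features were lower by more. On the deposited scale and at the 1.5-fold size, Mybph and Mybpc2 were the 2 genes lower in C26 scrambled muscle (10.5% of all features), and 0 were higher (10.1% of all features). At that size Mybph was also the 1 gene lower in C26 FoxP1-shRNA muscle than in Sham (6.40% of all features), and Myom3 the 1 gene higher (5.76% of all features).

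**Figure D2:**
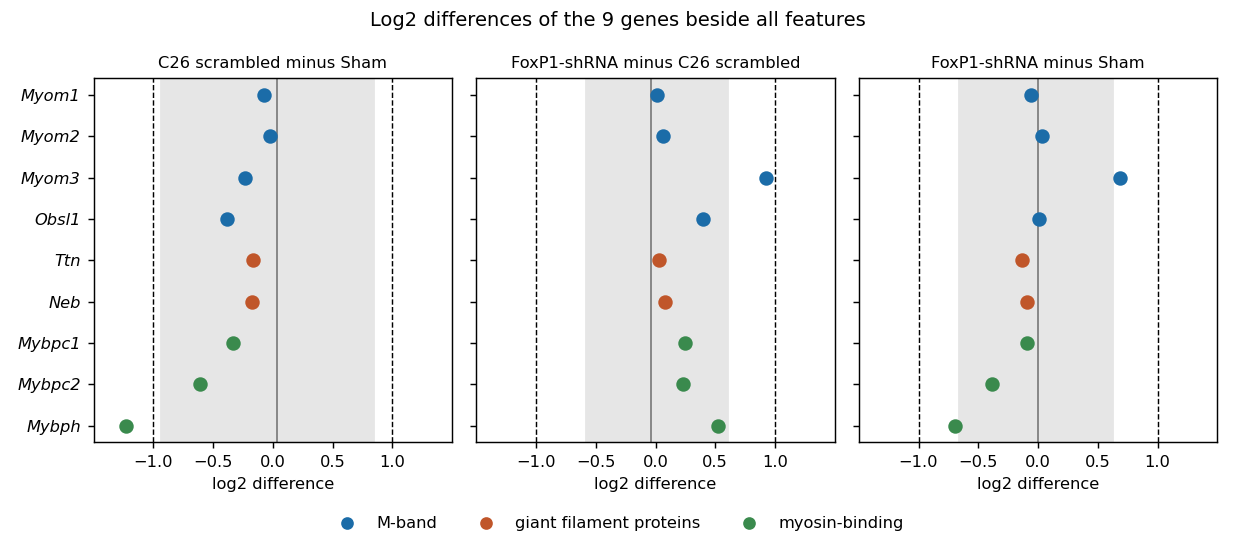
Log2 difference of each of the 9 genes (points, coloured by role) in C26 scrambled minus Sham, C26 FoxP1-shRNA minus C26 scrambled and C26 FoxP1-shRNA minus Sham; the grey band runs from the 5th to the 95th percentile of all 25206 features, the grey line is their median and dashed lines mark 2-fold. Mybph lies outside the band in the left and right panels, at -1.23 and -0.70, and Myom3 in the middle and right panels, at 0.92 and 0.69; under another scaling of the arrays the signs of the points near 0 can turn.

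The sign of most differences depended on how the arrays were brought to a common scale. On the deposited scale 9 of the 9 genes were lower in C26 scrambled muscle than in Sham (46.0% of all features) and 0 higher (53.3% of all features), but 8 were lower with quantile normalization (Ttn at 0), 5 after centring on the mean of 10 reference genes, 3 after centring on the median of the fibre markers and 1, Mybph, after centring on their mean. Centring on the reference genes raised the median of all features by 0.18 in this comparison, and centring on the mean of the fibre markers raised it by 0.85. Much of that shift came from Casq1, with a log2 difference of -4.33, since the other markers used lay between -0.39 and 0.02. Centring on the median of the fibre markers, in which Casq1 weighs less, raised the median of all features by 0.35. Relative to the median of all features, which the centrings shift by the same constant as each gene and so cannot change, 9 of the 9 genes stood lower in C26 scrambled muscle than in Sham on the deposited scale, and also with quantile and with cyclic loess normalization. In C26 FoxP1-shRNA muscle against C26 scrambled muscle, 9 of the 9 were higher on the deposited scale (44.8% of all features) and 0 lower (54.6% of all features), whereas Myom1, Myom2, Ttn and Neb were lower with cyclic loess normalization and with centring on the median of the fibre markers. With quantile normalization Myom1 was the 1 gene of the 9 that was lower, and with centring on the mean of the fibre markers Myom3 was the 1 gene that was higher. Against the median of all features, 9 of the 9 stood higher in this comparison on the deposited scale, 8 with quantile and 5 with cyclic loess normalization. In C26 FoxP1-shRNA muscle against Sham 6 were lower (50.5% of all features) and 3 higher (48.6% of all features) on the deposited scale, and between 2 and 7 of the 9 were lower across the 7 scalings.

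The differences of Mybph and Myom3 kept their sign under each of the 7 scalings in the comparisons where they were largest. For Mybph the log2 difference lay between -1.23 and -0.38 in C26 scrambled muscle against Sham, and between -0.70 and -0.38 in C26 FoxP1-shRNA muscle against Sham. Myom3 lay between 0.39 and 0.98 in C26 FoxP1-shRNA muscle against C26 scrambled muscle, and between 0.69 and 1.00 in C26 FoxP1-shRNA muscle against Sham. Mybpc2 was lower in C26 FoxP1-shRNA muscle than in Sham under the 7 scalings as well, with log2 differences between -0.47 and -0.07.

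**Figure D3:**
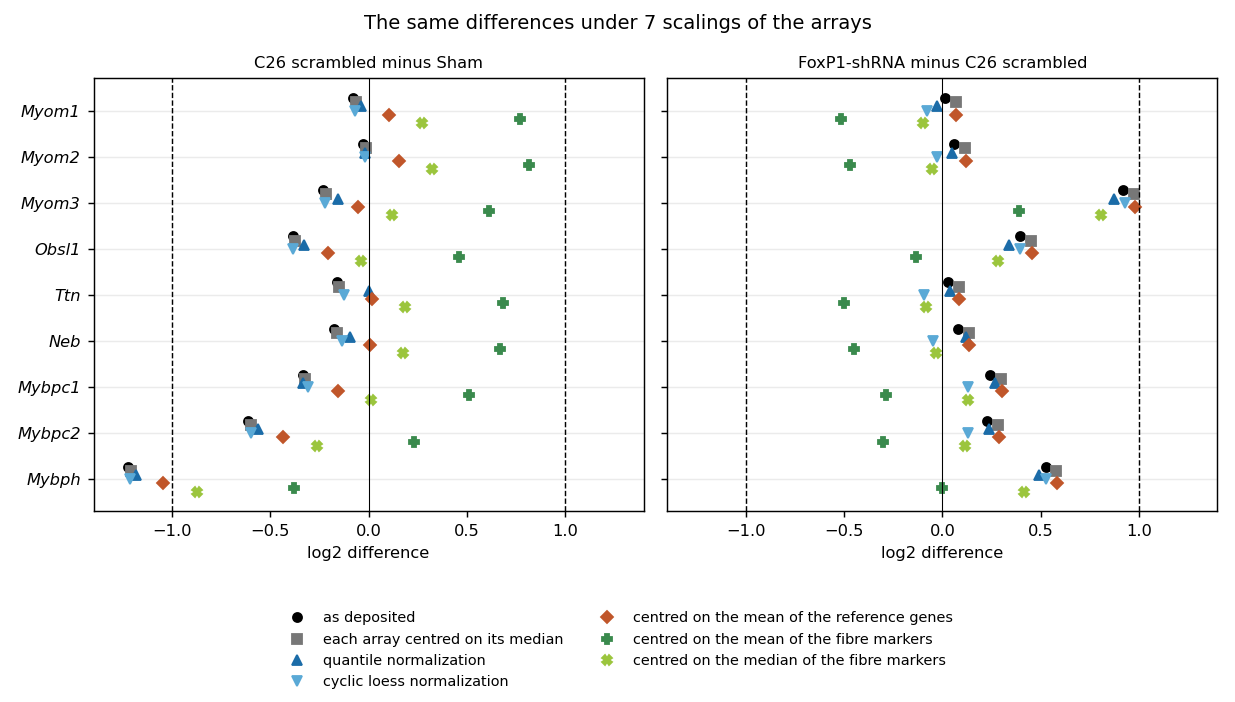
Log2 difference of each of the 9 genes under the deposited scale and 6 other scalings of the arrays (symbols), for C26 scrambled minus Sham and C26 FoxP1-shRNA minus C26 scrambled; dashed lines mark 2-fold. Mybph stays below 0 in the left panel and Myom3 above 0 in the right panel under each scaling, whereas the other 7 genes have values on both sides of 0 in both panels.

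A mean log2 value of 10 or more was found for 213 features, and 6 of the 9 genes (Myom1, Myom2, Ttn, Neb, Mybpc1 and Mybpc2) were among them. The highest value of any feature was 12.2 in C26 FoxP1-shRNA muscle, 12.4 in C26 scrambled muscle and 12.4 in Sham. The 213 features as a group had a median log2 difference of -0.11 in C26 scrambled muscle against Sham and of 0.13 in C26 FoxP1-shRNA muscle against C26 scrambled muscle on the deposited scale. Of them, 17 were at least 2-fold lower and 20 at least 2-fold higher in C26 scrambled muscle than in Sham. Whether differences were compressed nearer the highest values, where Ttn and Neb lay, was not tested. Myom3, Obsl1 and Mybph lay in the range of mean log2 values from 4 to 6.5, with 8235 features and a median difference of -0.01 in each of these comparisons.

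**Figure D4:**
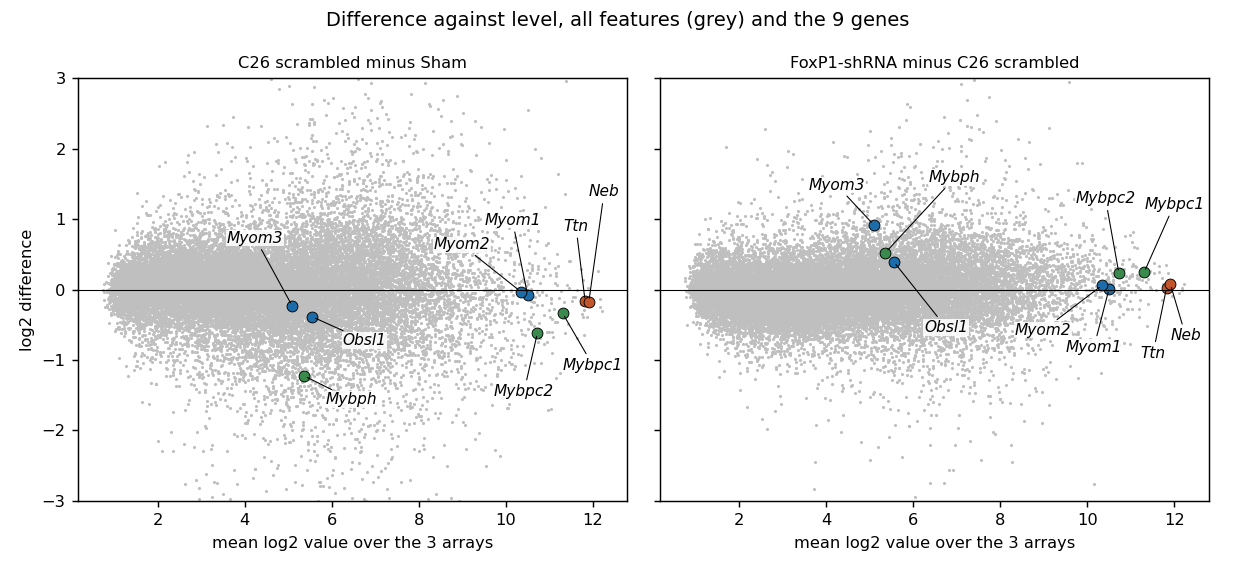
Log2 difference (vertical axis) against the mean log2 value over the 3 arrays (horizontal axis) for all features (grey) and the 9 genes (coloured by role), in C26 scrambled minus Sham and C26 FoxP1-shRNA minus C26 scrambled on the deposited scale; 116 features in the first and 6 in the second lie beyond the vertical axis. Myom1, Myom2, Ttn and Neb lie close to 0, where the sign depends on the scaling, and Mybph at -1.23 and Myom3 at 0.92 lie among the dimmer features.

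Genes whose products work with these proteins are given by list. On the deposited scale their counts at the 2-fold size stand beside shares of all features. These shares were 4.33% lower and 3.34% higher in C26 scrambled muscle against Sham. They were 1.06% lower and 1.44% higher in C26 FoxP1-shRNA muscle against C26 scrambled muscle. Of 10 measured M-band partners, 4 were at least 2-fold lower and 1 at least 2-fold higher in C26 scrambled muscle than in Sham on the deposited scale, with a median of -0.47. After centring on the mean of the fibre markers that median was 0.37, with 1 lower and 1 higher by that size. Under that centring 276 of all 25206 features were lower and 9258 higher by that size in this comparison. Set against C26 scrambled muscle, 4 of the 10 were at least 2-fold higher in C26 FoxP1-shRNA muscle and 0 at least 2-fold lower, with a median of 0.32. The count higher was 3 with quantile and with cyclic loess normalization, and 2 with the median of the fibre markers as centre. With their mean as centre, 1 was higher and 1 lower by that size, and the median was -0.21. By that size 109 of all features were higher and 2189 lower under the centring on the mean. The counts of partners, like all counts on the shared array, are side by side and were not tested. Ky, which encodes a protease-like protein needed for muscle integrity, had a log2 value of 5.49 in C26 FoxP1-shRNA muscle, 3.89 in C26 scrambled muscle and 8.27 in Sham. Lrrc39, which encodes the M-band protein myomasp, had a log2 value of 8.01 in C26 FoxP1-shRNA muscle, 6.999 in C26 scrambled muscle and 8.82 in Sham. In these genes C26 scrambled muscle was the lowest array. Smpx, the small muscle protein X-linked, had a log2 value of 9.76 in C26 FoxP1-shRNA muscle, 8.56 in C26 scrambled muscle and 9.98 in Sham. Ank1, whose muscle form anchors obscurin to the sarcoplasmic reticulum, had a log2 value of 5.56 in C26 FoxP1-shRNA muscle, 4.49 in C26 scrambled muscle and 6.05 in Sham. These 4 partners were named because their differences were the largest of the list, and in them C26 scrambled muscle was lowest and Sham highest. In C26 scrambled muscle against Sham the rest of the list differed by as little as 1.07-fold, and 1 of them was 2.21-fold higher. In the same comparison Myom1 differed by 1.05-fold and Myom2 by 1.02-fold.

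On the deposited scale titin partners lay on both sides of 0. Of 15 measured, 2 were at least 2-fold lower and 5 at least 2-fold higher in C26 scrambled muscle than in Sham (median 0.07), and 3 were at least 2-fold lower and 1 at least 2-fold higher in C26 FoxP1-shRNA muscle than in C26 scrambled muscle (median 0.07). After centring on the mean of the fibre markers 0 were lower and 6 higher by that size in the first comparison (median 0.92). In the second, 6 were lower and 0 higher (median -0.47). Under that centring 276 of all 25206 features were lower and 9258 higher by that size in the first comparison. In the second, 2189 of all features were lower and 109 higher. Trim63, the muscle ubiquitin ligase MuRF1 that binds titin at the M-band, had a log2 value of 10.89 in C26 FoxP1-shRNA muscle, 11.57 in C26 scrambled muscle and 9.03 in Sham. Its relative Trim55, or MuRF2, had a log2 value of 6.81 in C26 FoxP1-shRNA muscle, 5.99 in C26 scrambled muscle and 7.39 in Sham. The ligases thus lay on opposite sides of Sham in the tumour-bearing muscle with scrambled shRNA. Ankrd1, an ankyrin repeat protein that binds the spring region of titin, was 6.48-fold higher in C26 scrambled muscle than in Sham and 3.65-fold lower in C26 FoxP1-shRNA muscle than in C26 scrambled muscle. Ankrd2, its relative, was 5.24-fold higher in C26 scrambled muscle than in Sham and 2.41-fold lower in C26 FoxP1-shRNA muscle than in C26 scrambled muscle.

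Of 8 measured factors that splice titin, 0 were at least 2-fold lower or higher in either comparison on the deposited scale, with medians of 0.05 and 0.06. After centring on the mean of the fibre markers, 3 of the 8 were at least 2-fold higher in C26 scrambled muscle than in Sham. The median of the 8 was then 0.89, and 9258 of all 25206 features were higher by that size. Rbm20, the main splicing repressor of titin exons, had a log2 value of 7.56 in C26 FoxP1-shRNA muscle, 7.86 in C26 scrambled muscle and 7.24 in Sham. Among 16 relatives and partners of nebulin, 4 were at least 2-fold lower and 3 at least 2-fold higher in C26 scrambled muscle than in Sham (median -0.32), and 1 was at least 2-fold lower and 3 at least 2-fold higher in C26 FoxP1-shRNA muscle than in C26 scrambled muscle (median 0.28). These medians were 0.52 and -0.25 after centring on the mean of the fibre markers. Lmod3, the leiomodin that nucleates thin filaments in skeletal muscle, had a log2 value of 7.97 in C26 FoxP1-shRNA muscle, 5.28 in C26 scrambled muscle and 8.49 in Sham. Lmod2, a relative best known from heart, had a log2 value of 10.39 in C26 FoxP1-shRNA muscle, 10.87 in C26 scrambled muscle and 8.60 in Sham. The leiomodins, which were among the largest differences of the list, thus stood on opposite sides of Sham, while Neb itself differed by 1.13-fold.

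Of 14 genes of thick filament myosin and its folding, 3 were at least 2-fold lower and 1 at least 2-fold higher in C26 scrambled muscle than in Sham (median -0.28), and 1 was lower and 1 higher by that size in C26 FoxP1-shRNA muscle than in C26 scrambled muscle (median 0.25). These medians were 0.56 and -0.28 after centring on the mean of the fibre markers. Smyd1, a methyltransferase that helps myosin to fold, had a log2 value of 9.06 in C26 FoxP1-shRNA muscle, 7.66 in C26 scrambled muscle and 9.54 in Sham. The remaining myosin-binding protein genes differed little. Mybpc3, the cardiac form of myosin-binding protein C, had a log2 value of 3.93 in C26 FoxP1-shRNA muscle, 3.60 in C26 scrambled muscle and 3.78 in Sham, which is below each array's median value. Mybphl, which is known from the atria of the heart, had a log2 value of 2.94 in C26 FoxP1-shRNA muscle, 2.75 in C26 scrambled muscle and 2.85 in Sham, also below the median of each array.

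**Figure D5:**
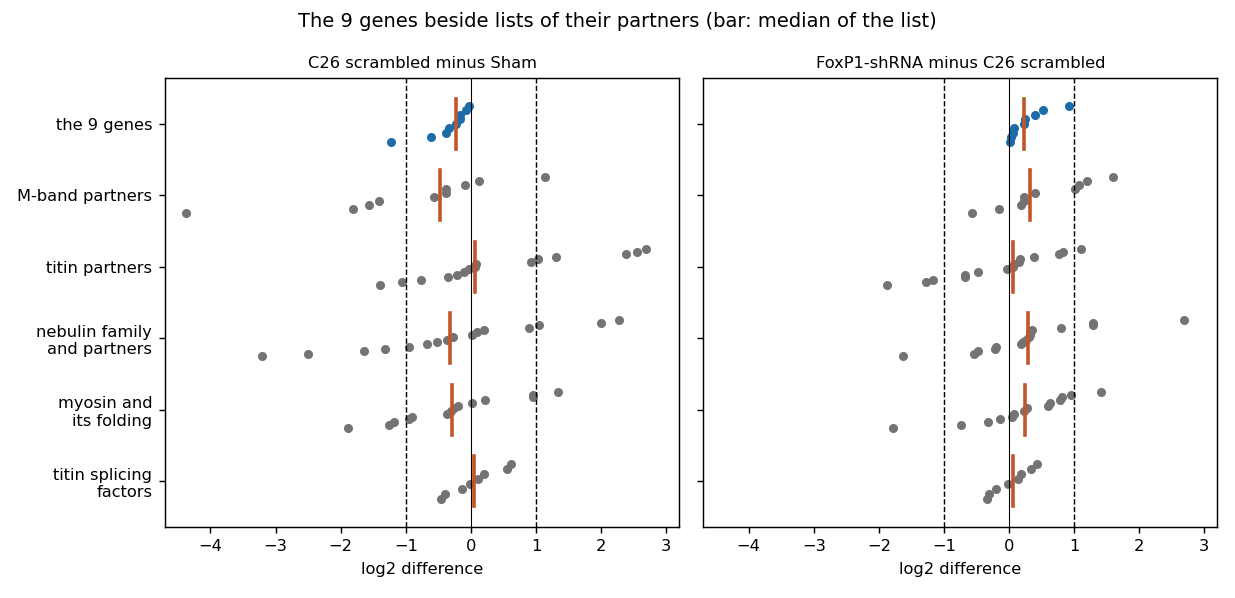
Log2 difference of the 9 genes (blue) and of the members of 5 lists of partner genes (grey points, 1 per gene, with the list median as a bar) in C26 scrambled minus Sham and C26 FoxP1-shRNA minus C26 scrambled on the deposited scale; dashed lines mark 2-fold. Apart from the titin splicing factors, every list has genes beyond 2-fold in each panel, and with another centring of the arrays the points of a panel shift together, which turns the sign of medians near 0.

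Markers of fibre type differed between the arrays. Counts at the 2-fold size here, for other cell types too, stand beside the shares of all features given for the partner lists. Of 9 fast fibre markers, 2 were at least 2-fold lower in C26 scrambled muscle than in Sham (median -0.35 as deposited and 0.49 after centring on the mean of the fibre markers), namely the calcium buffer Pvalb and the fast myosin light chain Mylpf. Of 8 slow fibre markers, 6 were higher in C26 scrambled muscle than in Sham (median 0.67, with 53.3% of all features higher). In C26 FoxP1-shRNA muscle against C26 scrambled muscle 7 were lower (median -0.78, with 54.6% of all features lower). Across the 7 scalings 6 or 7 of the 8 were higher in the first comparison and 7 or 8 lower in the second. Several were dim, with a median log2 value of 4.05 in C26 FoxP1-shRNA muscle, 5.15 in C26 scrambled muscle and 4.34 in Sham. The medians of all features on these arrays were 3.99, 4.05 and 4.06. Myom3 is tied to slow or intermediate fibres, and Mybpc1 is the form named slow, which alone does not make it a marker of slow fibres. On the deposited scale neither was higher in C26 scrambled muscle than in Sham, and both were higher in C26 FoxP1-shRNA muscle than in C26 scrambled muscle. In C26 scrambled muscle against Sham both turned to higher with the fibre-marker centrings. Mybpc1 turned to lower in C26 FoxP1-shRNA muscle against C26 scrambled muscle when the mean of the fibre markers was used. Myh2, the myosin heavy chain gene of type IIA fibres, was in neither list of fibre type markers. Its log2 value was 10.03 in C26 FoxP1-shRNA muscle, 9.40 in C26 scrambled muscle and 9.76 in Sham, which is the order of Myom3. A link between Myh2 and Myom3 was not tested. Markers of other cell types also differed on the deposited scale. Of 11 neutrophil markers 6 were at least 2-fold higher in C26 scrambled muscle than in Sham, with a median log2 value of 4.43 in C26 FoxP1-shRNA muscle, 5.31 in C26 scrambled muscle and 3.15 in Sham. Their summed log2 value was 54.2 in C26 FoxP1-shRNA muscle, 60.3 in C26 scrambled muscle and 36.2 in Sham. Of 7 fibroblast markers 5 were at least 2-fold lower in C26 scrambled muscle than in Sham, with a median log2 value of 6.71 in C26 FoxP1-shRNA muscle, 6.09 in C26 scrambled muscle and 7.73 in Sham. Their summed log2 value was 50.5 in C26 FoxP1-shRNA muscle, 46.9 in C26 scrambled muscle and 58.5 in Sham. Of 7 lymphocyte markers 4 were at least 2-fold lower in C26 scrambled muscle than in Sham. The 3 erythroid markers were each at least 2-fold higher in C26 FoxP1-shRNA muscle than in C26 scrambled muscle. The part of these cell types in the values of the 9 genes was not tested.

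The features most like 3 of the genes were found by the distance between pairs of log2 differences (C26 scrambled muscle against Sham and C26 FoxP1-shRNA muscle against C26 scrambled muscle), each pair resting on the same 3 arrays, among 12679 named features above an array's median. For Mybph the nearest was Tmem242, at a distance of 0.011, followed by Rcn1, Cop1, 2900076A07Rik and Olfr558, and 35 features lay within 0.1. For Obsl1 they were Zfand1, Zmpste24, Pnkd, Ttll12 and Ntan1, with 216 features within 0.1. For Neb they were Mfsd1, Yipf1, Ilk, Arf3 and 1700009J07Rik, with 497 features within 0.1. With 3 arrays, a pattern of 2 differences is shared by many features when the differences are small.

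Mybph lies within 100000 bases of Myog, which encodes the myogenic factor myogenin, and Obsl1 within the same distance of Speg, which encodes a kinase of striated muscle; these neighbours were chosen after their values were seen. Myog had a log2 value of 6.25 in C26 FoxP1-shRNA muscle, 7.65 in C26 scrambled muscle and 5.68 in Sham, so that C26 scrambled muscle was its highest array and the lowest of Mybph. Speg had a log2 value of 7.45 in C26 FoxP1-shRNA muscle, 6.72 in C26 scrambled muscle and 7.39 in Sham, with the low array the same as for Obsl1. Mef2c, a member of the family whose motif matched in Myom3 and Ttn, had a log2 value of 9.58 in C26 FoxP1-shRNA muscle, 7.28 in C26 scrambled muscle and 10.47 in Sham. Mef2c was lowest in C26 scrambled muscle, as was each of the 9 genes on the deposited scale, not only those with the match. Its relatives Mef2a and Mef2d were instead highest in C26 scrambled muscle. Their log2 differences against Sham were 0.05 for Mef2a and 0.12 for Mef2d. No link between the values was tested.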

How the data were processed

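Expression in tibialis anterior was measured with 3 Mouse Gene 2.0 ST arrays, 1 for each group, and 3 mice were pooled for each. The deposited log2 values come from the authors' RMA, which corrects background, quantile-normalizes the arrays and condenses the probes to 1 value for each gene, run with affy 1.36.1 under R 2.15.1, as the submitters' processing notes name them, and with an Entrez gene mapping as the paper's methods state. Not given in the sources used here are the genome build and the set of arrays normalized together. Quantile normalization forces the arrays to 1 distribution, so that a shift shared by most genes is removed before deposit.

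The platform annotation paired 23185 of 25206 features with a symbol and left 2021 unnamed here. Members were matched by symbol. Differences between log2 values, their folds and counts at a fixed 2-fold size were computed with Python 3.11.15, numpy 2.4.6 and pandas 2.3.3, with no filter on dim features and no test, since each group is 1 array. Precision is limited by the number of arrays. The computation was checked on simulated arrays. Alternatives were 4 scalings (array median, quantile, cyclic loess with limma 3.58.1 under R 4.3.3, and the mean of 10 reference genes), centring on the mean of 7 fibre markers without Ttn, a filter on dim features, sizes of 1.5-fold and 3-fold and the mean of the 9 genes; centring on the median of the fibre markers was added after seeing the data. The members and the 22 other gene lists were chosen with earlier results of these data known. From each list up to 4 genes with the largest differences could be named, and Foxp1. Speg, Myh2, Mef2a and Mef2d, and the choice of Myog and Mef2c for comparison, came after their values were seen. Promoters are RefSeq windows of GRCm38.p6, in which 7 of 9 genes matched. Planned comparisons with protein length and identity were not analysed here, as no protein sequences were used. Genes with near-identical copies may share probes. Arrays of FoxP1 over-expression were not analysed here.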

Additional observations from a re-analysis of the deposited data

How the results depend on the processing

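Of the 9 genes, the number at least 2-fold lower in C26 scrambled muscle than in Sham was 1 on the deposited scale and with median, quantile, cyclic loess and reference-gene scaling, and 0 after centring on the mean or on the median of the fibre markers, the second of which was added after seeing the data. It was 2 at a size of 1.5-fold and 0 at 3-fold. The median log2 difference of the 9 in that comparison was 0.61 with the mean and 0.12 with the median of the fibre markers, beside -0.23 as deposited. In C26 FoxP1-shRNA muscle against C26 scrambled muscle the median was -0.30 with the mean of the fibre markers, beside 0.23 as deposited, and 1 gene was counted as higher at 1.5-fold. In C26 FoxP1-shRNA muscle against Sham the median was 0.22 with the mean of the fibre markers, beside -0.09 as deposited. In that comparison 1 gene was at least 2-fold higher with the mean of the fibre markers, and at 1.5-fold 1 gene was lower and 1 higher. Casq1, 20.1-fold lower in C26 scrambled muscle than in Sham, is 1 of the 7 markers in that mean. Of the values of single genes under the alternatives, 126 stayed within 1.2-fold of the deposited value and 36 moved by more. No array could be left out, since each group is 1 array. No paired analysis was possible because each group has 1 array. Whether the upper limit of the signal range compressed the differences of the brightest genes was not tested.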
